A study of Mus musculus with 6 samples.

Results

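The carbonic anhydrase genes *Car1*, *Car2*, *Car3*, *Car4*, *Car5b*, *Car8*, *Car9*, *Car12*, *Car13* and *Car14* were followed in cultured epithelium of the mouse esophagus and stomach. They were chosen by gene name, and every non-control probe on the array with 1 of these names was taken, which gave 13 probes for 10 genes out of 55681 probes under 34298 gene names. Organoids, which are small epithelial structures grown from tissue cells in Matrigel, came from both organs of mice 1, 2 and 4, so that 3 esophageal and 3 stomach samples were each hybridized to 1 single-color array. All samples were at passage 0 and carry the word control in their labels, which name no treatment. Stomach organoids of mouse 4 were taken on day 7 of culture and the other 5 samples on day 8. The methods name wild-type C57BL/6 female mice, and the labels give neither strain nor age. An age at death of 14 to 20 weeks follows the account of the Cre strains in the methods, which do not say whether it covers the wild-type mice. Esophageal organoids were started from enzyme-dissociated esophagus and stomach organoids from glands of the corpus. Both media held B27, N2, EGF, noggin, FGF-10, N-acetyl-L-cysteine, nicotinamide, a TGF-β receptor kinase inhibitor and the ROCK inhibitor Y-27632. The stomach medium also held WNT3A and R-spondin1 conditioned medium and gastrin, and the esophagus medium held forskolin and none of these. Tissue and medium therefore cannot be told apart in any comparison here. In these bulk samples, fewer cells of a type and less RNA per cell cannot be told apart either.

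Carbonic anhydrases catalyze the reversible hydration of carbon dioxide to bicarbonate and a proton. The cytosolic enzymes CAR1, CAR2, CAR3 and CAR13 act inside the cell, and CAR5B acts in mitochondria. CAR4 is held at the cell surface by a lipid anchor, and CAR9, CAR12 and CAR14 are transmembrane proteins whose catalytic domain faces the outside. CAR8 keeps the fold of the family but has no enzymatic activity. In the stomach, CAR2 supplies protons to acid-secreting parietal cells and bicarbonate to the mucus-secreting surface cells. *Car9* is a classic target of the hypoxia-inducible factor HIF and is also known for its expression in the gastric lining.

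The 4 genes whose difference passed the test were each read by 1 probe of 60 bases. The first 30 bases of each are shown because all values given for these genes rest on them, and capitals are not used since no motif is marked.
Car2 (NM_009801, mm9 chr3:14900206-14900265, plus strand): cctctcatccgttgtgcttactaacaaaat
Car9 (NM_139305, mm9 chr4:43526518-43526577, plus strand): ttgaatgctgggattacaggaatgcaccat
Car12 (NM_178396, mm9 chr9:66614542-66614601, plus strand): gccactgtgataattgtctgctcagcattt
Car13 (NM_024495, mm9 chr3:14662332-14662391, plus strand): acgctatcctatatctgctgttttttctgt
Coordinates and transcripts are those of the array files. No pair of the 13 probes, over 78 pairs, shared a run longer than 11 bases. Against probes of all other gene names, on either strand, the *Car2*, *Car9* and *Car13* probes shared no run of 15 bases, and the *Car12* probe shared one with 3 probes, the longest of 16 bases with a *Gtf3c5* probe. Of all 55681 probes, 48.7% shared such a run with a probe of another gene name. The shown part of the *Car9* probe resembles, as read by eye, a short interspersed repeat, a kind of element found in many transcripts. Matches of the probes elsewhere in the genome, and so the cross-hybridization of the single *Car9* probe, were not analysed here.

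Of the 13 probes, 6 were well above background on all 6 arrays, 4 on some arrays and 3 on none, and no spot was saturated. Values are the log2 values the authors deposited, and a call means an adjusted p under 0.05 from limma over all probes. *Car2* and *Car9* had their higher levels in stomach organoids, while *Car12* and *Car13* had theirs in esophageal organoids, which is 2 probes in each direction. Over all probes, calls toward the esophagus made up 5.94%, calls toward the stomach 6.22% and both together 12.2%. Among probes above background on all 6 arrays, 20.4% were called in either direction. Each direction thus held 1 cytosolic enzyme and 1 cell-surface enzyme. The median difference over the 10 genes, each by its brightest probe, was -0.27 log2 units (esophagus minus stomach), beside 0.03 over all genes. This median falls between *Car3* (-0.27) and *Car14* (-0.26). *Car3* was above background on no array and *Car14* on 1 stomach array, so the median is not a measured shift of the family.

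**Figure D1:**
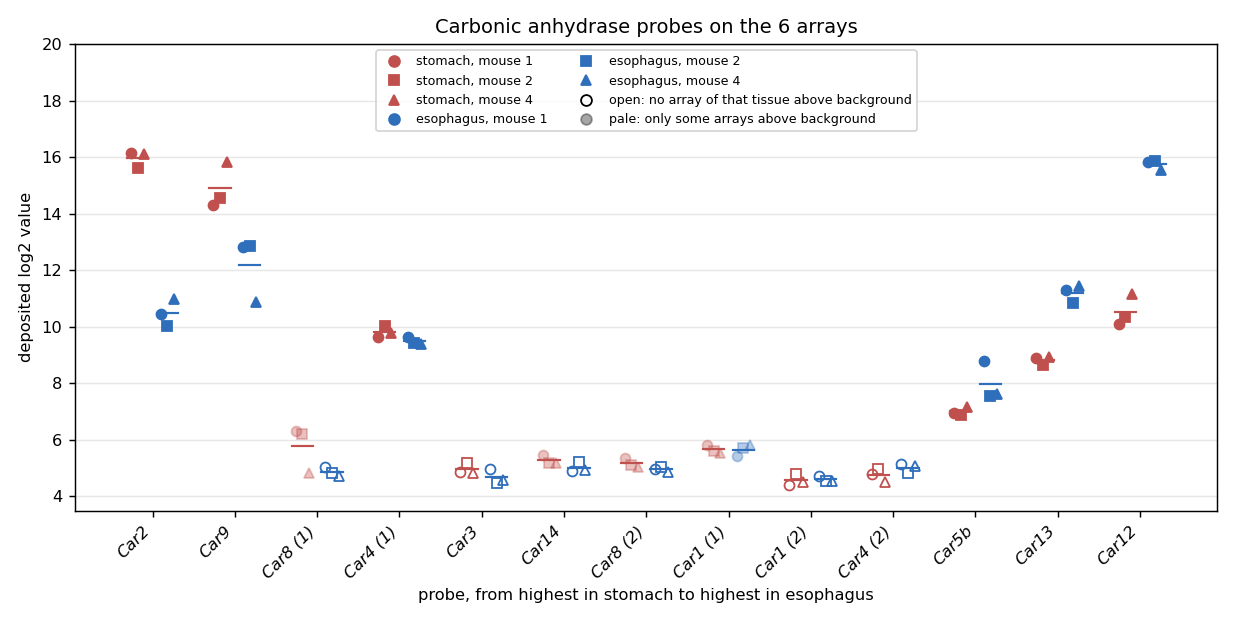
Deposited log2 values (vertical axis) of the 13 carbonic anhydrase probes on the 6 arrays, stomach in red and esophagus in blue, with marker shape for the mouse and a line at each tissue's mean of 3. The tissues separate widely for Car2 and Car12, the Car9 values of mouse 4 lie farthest apart, and the dim probes sit together near the bottom. Levels are not comparable between probes.

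*Car2*, the widely expressed high-activity cytosolic enzyme, had log2 values of 16.16, 15.62 and 16.09 in stomach organoids of mice 1, 2 and 4. In esophageal organoids of the same mice it had 10.47, 10.04 and 10.98. Every stomach value lay more than 4 log2 units above every esophageal one. The difference was -5.46 log2 units (SE 0.27, 95% interval -6.08 to -4.84, n = 3 per tissue), a 44.1-fold higher level in the stomach (limma, adjusted p = 8.44e-06). It ranked 378th of 55681 probes by absolute difference. The probe was well above background in the esophagus too, so the fold is a measured value and not a bound.

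*Car12*, a transmembrane enzyme with an extracellular catalytic domain, showed the opposite order. It had values of 10.10, 10.35 and 11.16 in the stomach and 15.82, 15.87 and 15.53 in the esophagus. The esophageal values were close together (SD 0.18), and the stomach value of mouse 4 was the highest of its tissue. The difference was 5.21 log2 units (SE 0.28, 95% interval 4.57 to 5.85), a 37.0-fold higher level in the esophagus (limma, adjusted p = 1.3e-05). It was also present in stomach organoids, where all 3 arrays were above background.

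*Car13*, a cytosolic enzyme related to CAR1 and CAR2, had values of 8.88, 8.65 and 8.93 in the stomach and 11.32, 10.86 and 11.44 in the esophagus. The tissues did not overlap, and the difference of 2.38 log2 units (SE 0.19, 95% interval 1.93 to 2.83) was a 5.22-fold higher level in the esophagus (limma, adjusted p = 0.000141). The 3 mice gave paired differences of 2.43, 2.21 and 2.51 log2 units. *Car2*, *Car12* and *Car13* were called under all 15 alternative fits, with differences of -5.71 to -5.22, 4.99 to 5.63 and 2.23 to 2.56 log2 units. In these counts of 15, the same threshold is kept, and the slide block and the fit without the esophageal array of mouse 4 gave the same differences, since that array is alone on its slide.

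*Car9*, the surface enzyme known for its induction by low oxygen, had values of 14.32, 14.57 and 15.82 in the stomach. In the esophagus it had 12.81, 12.85 and 10.86. Mouse 4 gave both the highest stomach value and the lowest esophageal value, while mice 1 and 2 were close to each other within each tissue. The difference was -2.73 log2 units (SE 0.59, 95% interval -4.11 to -1.35), a 6.62-fold higher level in the stomach (limma, adjusted p = 0.0224). The paired differences were -1.51, -1.72 and -4.96 log2 units in mice 1, 2 and 4. The SD over mice was 1.14 for the esophageal arrays and 0.80 for the stomach arrays, above those of 97.8% and 96.9% of the 21382 probes measured above background on all arrays.

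The *Car9* call was the least stable of the 4. It was lost in 6 of 15 alternatives, among them the paired fit that takes each mouse as a block (-2.73 log2 units; limma, adjusted p = 0.0596) and the fits without the stomach array of mouse 1 (-3.02, adjusted p = 0.0509), mouse 2 (-2.90, 0.0681) or mouse 4 (-2.27, 0.0506). The esophageal array of mouse 4 was the only one on the second slide. Without it, and so within the first slide, the difference was -2.07 log2 units (adjusted p = 0.0212). Without both arrays of mouse 4 it was -1.61 log2 units (limma, adjusted p = 0.00199). The stomach value stayed higher in all 3 mice and in all 15 alternatives.

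**Figure D2:**
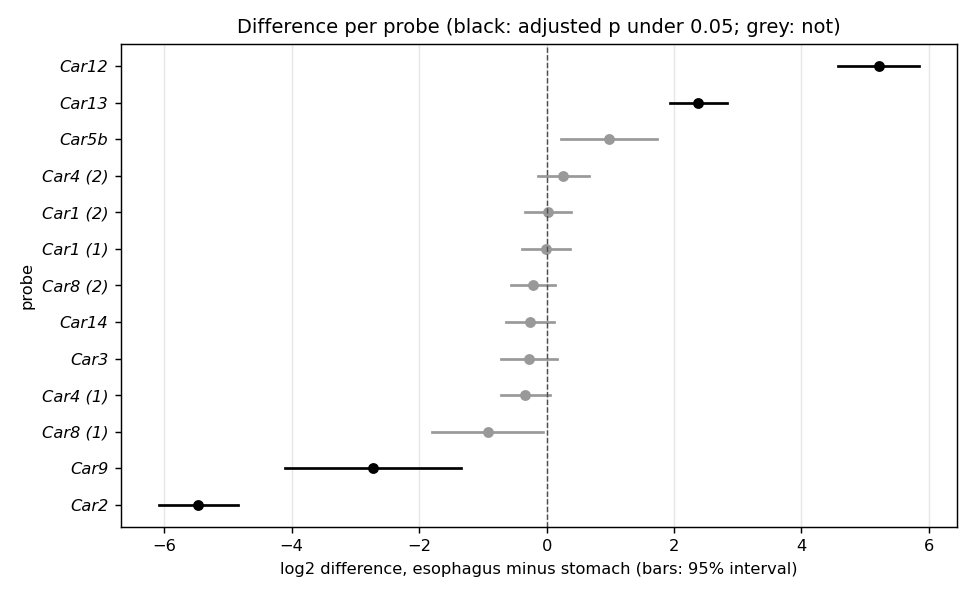
Log2 difference, esophagus minus stomach, of each carbonic anhydrase probe with its 95% interval from limma; black marks an adjusted p under 0.05. Car2 at -5.46 and Car12 at 5.21 lie at the ends, the Car9 interval of -4.11 to -1.35 is the widest, and most of the others lie near 0. The points of Car3, Car8, Car14 and the dimmer Car1 and Car4 probes are fitted values, not measured sizes, since those probes were below background in at least 1 tissue.

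*Car5b*, a mitochondrial enzyme encoded on the X chromosome, had values of 6.97, 6.89 and 7.18 in the stomach and 8.79, 7.57 and 7.62 in the esophagus. The tissues did not overlap, as for 28.6% of all probes, and the esophageal value of mouse 1 stood above the other two. The difference of 0.98 log2 units (95% interval 0.23 to 1.73) did not pass the test (limma, adjusted p = 0.102), nor did it in any of the 15 alternative fits at the same threshold, whereas the unadjusted rule called it. Without the esophageal array of mouse 1 the difference was 0.58 log2 units (adjusted p = 0.0802).

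*Car4*, the lipid-anchored surface enzyme, had values of 9.63, 10.03 and 9.79 in the stomach and 9.64, 9.43 and 9.38 in the esophagus by its brighter probe. The tissues overlapped and the difference was -0.33 log2 units (95% interval -0.72 to 0.05; limma, adjusted p = 0.278). The other *Car4* probe was well above background on 0 of the 6 arrays and did not pass the test (limma, adjusted p = 0.44).

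*Car8*, the member without catalytic activity, was near the detection limit. Its brighter probe had values of 6.31, 6.21 and 4.83 in the stomach, above background on 2 of 3 arrays, and 5.03, 4.83 and 4.71 in the esophagus, above background on none. The stomach value of mouse 4 lay among the esophageal ones. The probe did not pass the test (limma, adjusted p = 0.181). Without the stomach array of mouse 4 the probe passed the test (limma, adjusted p = 0.00241), as it did without both arrays of mouse 4 (adjusted p = 0.00423). No size is given, since the esophageal side was not above background. The other *Car8* probe was above background on 1 stomach array and on no esophageal array, with overlapping values, and did not pass the test (limma, adjusted p = 0.466).

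*Car14*, a transmembrane enzyme, was above background on 1 stomach array and no esophageal array, with stomach values of 5.46, 5.19 and 5.19 and esophageal values of 4.92, 5.21 and 4.93. The tissues overlapped, and the probe did not pass the test (limma, adjusted p = 0.398). *Car1*, a cytosolic enzyme abundant in red blood cells, was above background on 2 of 3 arrays in each tissue. Its values were 5.83, 5.62 and 5.55 in the stomach and 5.45, 5.70 and 5.82 in the esophagus, a difference of -0.01 log2 units (95% interval -0.39 to 0.37). The other *Car1* probe and the single probe of *Car3*, a low-activity enzyme of muscle and fat, were not well above background on any array.

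*Car13*, *Car1*, *Car3* and *Car2* lie in this order in 1 cluster on chromosome 3, within 237.9 kb between the outer ends of their probes (mm9 coordinates of the array files). The 2 ends of the cluster went opposite ways: *Car13* had its higher level in the esophagus, *Car2* in the stomach. *Car1* and *Car3*, which lie between them, were at or below the detection limit. The *Car13* and *Car1* probes are 105.2 kb apart, and the *Car3* and *Car2* probes 28.4 kb. No probe of another gene in the surrounding region was called. The neighbors beyond *Car13* were *E2f5*, with a difference of 0.13 log2 units, *1810022K09Rik*, with 0.34 and 0.33 by its 2 probes, *Lrrcc1*, with -0.17 and 0.50, and *Slc7a12*, which was below background on all arrays. Beyond *Car2*, *A930001A20Rik* was above background on the stomach arrays only, at least 1.79-fold higher there (limma, adjusted p = 0.0524), where at least means that the esophageal side is, on each array, the higher of the probe's own value and the lowest signal above background.

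**Figure D3:**
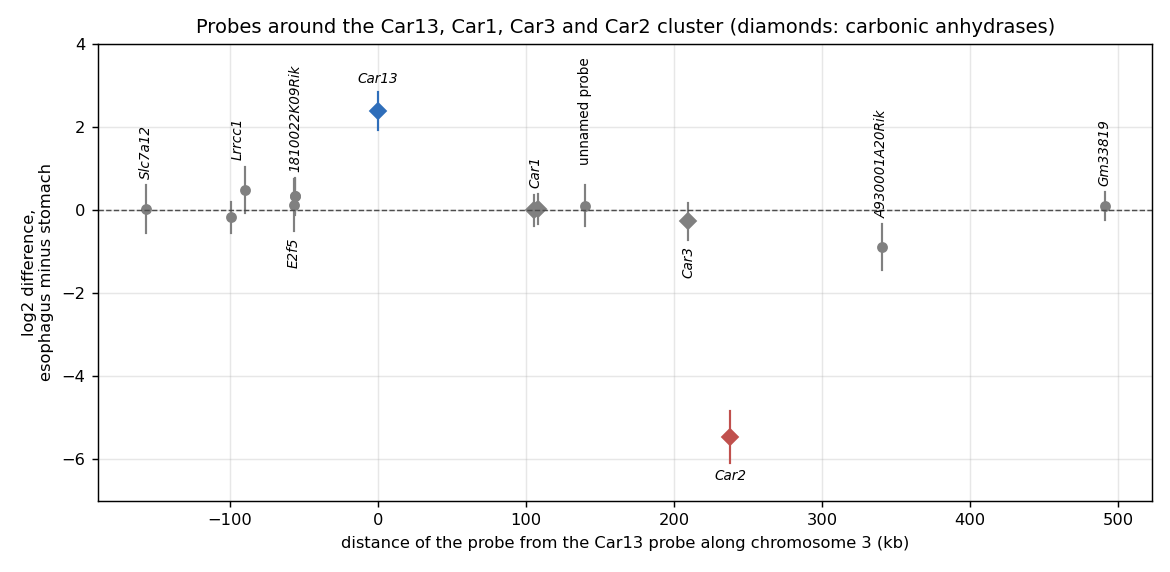
Log2 difference, esophagus minus stomach (vertical axis, bars are 95% intervals), against distance of each probe from the Car13 probe in kb; diamonds are carbonic anhydrases, and blue and red mark probes called higher in the esophagus and the stomach. Car13 at 2.38 and Car2 at -5.46 are the called probes of the region, and the probes between and around them lie near 0 or were not called.

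The remaining family members were taken as a list of 8 genes: *Car5a*, *Car6*, *Car7*, *Car10*, *Car11*, *Car15* and the receptor phosphatases *Ptprg* and *Ptprz1*, which carry a carbonic anhydrase-like domain outside the cell. By the brightest probe of each, 1 was called toward the esophagus, 2 were called toward the stomach and 5 were not called. Over all 34298 genes the shares were 7.15% and 7.7%. *Ptprz1* had values of 5.53, 5.30 and 5.10 in the stomach and 12.67, 13.03 and 12.86 in the esophagus. The difference was 7.54 log2 units (SE 0.17; limma, adjusted p = 2.13e-07), with only 1 of the 3 stomach arrays above background, and ran from 6.62 to 9.44 over the alternatives. A second *Ptprz1* probe, below background on all stomach arrays, gave an esophageal level at least 239-fold above the stomach level on the deposited scale. Over the alternatives its fitted difference ran from 6.86 log2 units, with an offset of 50, to 10.86. *Ptprg* differed by 0.78 log2 units in the same direction without passing the test (adjusted p = 0.0677). It passed without the stomach array of mouse 4, at 0.996 (limma, adjusted p = 0.0165).

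*Car7*, a cytosolic enzyme best known from neurons, had stomach values of 7.84 to 8.53 and esophageal values of 6.85 to 7.15, a difference of -1.16 log2 units (SE 0.20; limma, adjusted p = 0.0083). It was called in all 15 alternatives. *Car11*, which like CAR8 lacks catalytic activity, differed by -1.14 log2 units (SE 0.25; limma, adjusted p = 0.0228), with 2 of the 3 esophageal arrays above background. The difference was -0.75 with an offset of 50 and -2.10 with the 75th percentile, called in both. That call was lost without the stomach array of mouse 1 (-1.22, adjusted p = 0.0682) or mouse 2 (-0.90, 0.0643), and without the esophageal array of mouse 2 (-1.15, 0.0671) or mouse 4 (-0.99, 0.0594). *Car15*, a lipid-anchored enzyme, differed by -0.32 log2 units (limma, adjusted p = 0.682). This value moved from -0.78 without the esophageal array of mouse 2 (adjusted p = 0.0527) to -0.06 without that of mouse 1 (0.954), and was -0.13 without that of mouse 4 (0.901). *Car5a*, *Car6* and all 4 probes of *Car10* were not well above background on any array.

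Carbonic anhydrases work beside carriers that move bicarbonate, chloride, protons and lactate across the membrane. Of 16 bicarbonate and chloride transporters, limma called 3 toward the stomach, beside 7.7% of all genes, and 0 toward the esophagus, beside 7.15%. An unadjusted p under 0.05 gave 0 toward the esophagus as well, but 1 was called without the esophageal array of mouse 1. The median difference was -0.14 log2 units. *Slc4a4*, the sodium bicarbonate cotransporter that loads bicarbonate into epithelial cells, had stomach values of 10.42, 10.35 and 10.49 and was below background on all esophageal arrays, a level at least 42.7-fold higher in the stomach by this probe on the deposited scale (limma, adjusted p = 2.5e-07). Its fitted difference was -4.42 log2 units with an offset of 50, -3.71 with the probes of the gene averaged and -8.38 with the 75th percentile, and was called in each. *Cftr*, the chloride and bicarbonate channel, differed by -1.80 log2 units (SE 0.15; limma, adjusted p = 0.000139), and by -0.84 with its probes averaged (adjusted p = 0.00868). *Slc26a9*, a chloride transporter of the gastric lining, differed by -3.27 log2 units (SE 0.82; limma, adjusted p = 0.04). Its esophageal values of 8.50, 7.07 and 4.71 spread widely, and the last, of mouse 4, was not above background, so that the size rests in part on a value that was not measured. Its call was lost in 7 of 15 alternatives. Among these were the fits without the stomach array of mouse 1 (adjusted p = 0.152), mouse 2 (0.131) or mouse 4 (0.0661) and without the esophageal array of mouse 2 (0.0911). With arrays left out singly, the difference ran from -4.14 log2 units without the esophageal array of mouse 1 to -2.25 without that of mouse 4.

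Of 14 genes of proton and lactate extrusion, limma called 8 toward the stomach, beside 7.7% of all genes, and 0 toward the esophagus, beside 7.15%, where an unadjusted p under 0.05 gave 0 as well. The median difference was -1.22 log2 units. *Kcnq1*, a potassium channel that sustains acid secretion, had values of 13.63, 13.78 and 13.44 in the stomach and 5.63, 5.65 and 6.22 in the esophagus, a difference of -7.78 log2 units (SE 0.20; limma, adjusted p = 3.69e-07) that ran from -8.60 to -7.05 over the alternatives. The sodium-proton exchangers *Slc9a4* and *Slc9a2* were below background on all esophageal arrays and at least 89.1-fold and 20.9-fold higher in the stomach on the deposited scale. Over the alternatives their fitted differences ran from -9.28 to -5.44 and from -7.05 to -3.43 log2 units, the smaller ones with an offset of 50. Of the proton pump of parietal cells, the alpha subunit *Atp4a* was among the 8 called. It had stomach values of 5.76, 6.01 and 6.42, was above background on no esophageal array and had a stomach level exceeding the esophageal one by at least 1.94-fold (limma, adjusted p = 0.0177). The beta subunit *Atp4b* stayed below background on all arrays. Both subunits are named as the pump of parietal cells, outside the rule for named genes, with their values known.

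HIF target genes were described next to *Car9*, as a list of 20. Limma called 2 toward the esophagus, beside 7.15% of all genes, and 0 toward the stomach, beside 7.7%, where an unadjusted p under 0.05 also gave 0, and the median difference was -0.03 log2 units. The growth factor gene *Vegfa* differed by 1.30 log2 units (SE 0.28; limma, adjusted p = 0.0202), a direction opposite to that of *Car9*, and its call was lost without the stomach array of mouse 1 (1.25, adjusted p = 0.0915) or mouse 2 (1.24, 0.0898). The glycolysis regulator *Pfkfb3* differed by 0.86 log2 units (SE 0.18; limma, adjusted p = 0.0173). Its call was lost in 4 of 15 alternatives: without the stomach array of mouse 1 (0.89, adjusted p = 0.0636), without both arrays of mouse 4 (0.72, 0.0743), with its probes averaged (0.59, 0.0716) and with the 75th percentile (1.03, 0.0665).

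Some of these genes followed the order that *Car9* showed between arrays. For *Car9*, the stomach array of mouse 4 lay 1.38 log2 units above the mean of the other two, and its esophageal array lay 1.97 below. Of the 19 HIF target genes above background on all arrays, 9 were also highest in the stomach and lowest in the esophagus on the arrays of mouse 4, beside 12.9% of the 15634 genes that were above background on all arrays. Deviations of at least 1 log2 unit both ways were found in 3 of the 19 and in 0.537% of those 15634 genes. These were *Egln3*, an oxygen sensor, at 1.28 and -2.43, *Ndrg1*, a stress response gene, at 1.47 and -1.97, and *Bnip3*, a mitophagy receptor gene, at 1.03 and -1.63. These 3, none of them called between the tissues, and *Slc16a3*, the lactate exporter, were picked after their values were seen. Other HIF target genes deviated the opposite way in both tissues: *Ankrd37* (-1.02 and 0.66), *Pfkfb3* (-0.30 and 0.12), *Kdm3a* (-0.26 and 0.26) and *Ldha* (-0.05 and 0.13). Among the 9, the esophageal deviation was small for *Aldoa* (-0.23), *Hk2* (-0.25) and *Pgk1* (-0.34). *Slc16a3* had 12.42, 12.74 and 14.93 in the stomach and 12.09, 13.10 and 11.09 in the esophagus, with the same extremes in mouse 4 (difference -1.27 log2 units; limma, adjusted p = 0.352). The stomach array of mouse 4 also differs from the others by its harvest on day 7, and the esophageal array of mouse 4 by its slide. The part of day, slide or mouse in these values was not tested.

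**Figure D4:**
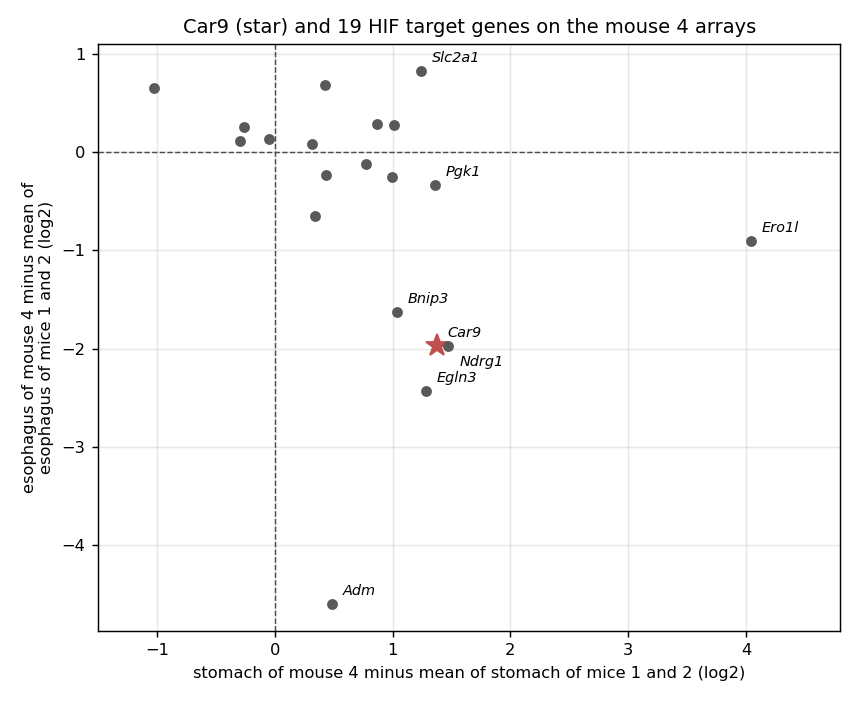
Deviation of the mouse 4 array from the mean of mice 1 and 2, in log2 units, in the stomach (horizontal axis) and the esophagus (vertical axis), for Car9 (star) and 19 HIF target genes above background on all arrays. Car9 at 1.38 and -1.97 lies beside Ndrg1, Egln3 and Bnip3 at the lower right, and most other genes lie nearer to 0 on the vertical axis.

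The sequence before the *Car9* start was read for 2 short motifs on both strands. ACGTG is a form of the core of the HIF response element, and TGANTCA is the AP-1 element. The GCGTG form of that core was not searched for, here or in the other promoters. ACGTG also lies inside the E-box CACGTG. The 250 bases upstream of the RefSeq start of *Car9* (GRCm38.p6, chr4:43506776-43507025, plus strand) are shown because of the array pattern just described, with the motif matches in capitals.
Car9 upstream: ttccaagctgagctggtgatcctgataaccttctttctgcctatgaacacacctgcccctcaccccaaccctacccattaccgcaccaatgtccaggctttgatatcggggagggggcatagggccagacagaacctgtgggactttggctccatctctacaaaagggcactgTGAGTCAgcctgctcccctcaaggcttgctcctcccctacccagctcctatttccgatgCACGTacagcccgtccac
ACGTG was found once, on the minus strand, starting 18 bases before the start, and TGANTCA once, starting 77 bases before it. Of 32851 promoters of this length, 16.6% held ACGTG and 6.7% held TGANTCA. The promoter table held 5 of the 10 genes. Among them *Car14* also held ACGTG, while *Car4*, *Car5b* and *Car12* held neither motif. A match of letters is not a binding site.

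The labels were checked against marker genes. The keratin genes of squamous epithelium *Krt5*, *Krt14* and *Krt13* were called higher in esophageal organoids, with differences of 11.93 log2 units for *Krt5* and 11.30 for *Krt14*, and were above background on only 1 or 2 stomach arrays. *Krt6a*, below background on all stomach arrays, had an esophageal level at least 2673-fold above the stomach level. Of the 4 *Trp63* probes, 3 were higher in the esophagus, and the one with the highest mean over the 6 arrays was lower there, at -1.22 log2 units. The columnar keratin genes *Krt8*, *Krt18* and *Krt7* were called higher in the stomach and *Epcam* was not (-0.72 log2 units; limma, adjusted p = 0.0623). Also called there were all 4 pit cell, both neck cell and both measured chief cell markers. The 2 parietal cell markers, of which *Atp4a* was called higher in the stomach, summed, on the linear scale of the deposited values, to 81.1 to 128 in the stomach and 61.0 to 76.2 in the esophagus. Of 5 erythroid markers, 4 were not well above background on any array, among them *Hbb-b1* and *Hba-a1*. The sum of the 5 was 131 to 159 in the stomach and 130.2 to 163 in the esophagus. The parietal and erythroid sums rest largely on signal near or below background and are not levels to compare. Of 6 striated muscle markers, *Ckm*, *Tnnt3* and *Myh2* were below background on all arrays, *Acta1* was above it on the 3 stomach arrays, and *Mylpf* and *Tnni2* were above it on all 6. *Tnni2* was called higher in the stomach, at -2.42 log2 units (limma, adjusted p = 0.000366). Of 5 fat cell markers, *Adipoq*, *Cfd*, *Plin1* and *Lep* were below background on all arrays, and *Fabp4* was above it on all 6, with values of 6.49 to 11.79. By limma, 0 of the 7 fibroblast, 4 smooth muscle and 5 endocrine markers were called. An unadjusted p under 0.05 gave *Col1a2* toward the stomach and *Cnn1* toward the esophagus (adjusted p = 0.0538 and 0.11). Of the immune markers, *Cd68* and *Cd3e* were above background on all 6 arrays and were not called (1.63 and -0.50 log2 units; limma, adjusted p = 0.211 and 0.299), and *Ptprc* and *Adgre1* were below background throughout. Of 4 endothelial markers *Vwf* was called toward the stomach (at least 1.55-fold; limma, adjusted p = 0.0302), *Pecam1* and *Kdr* were not called and *Cdh5* was below background. The part of these cell types in the carbonic anhydrase values was not tested.

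**Figure D5:**
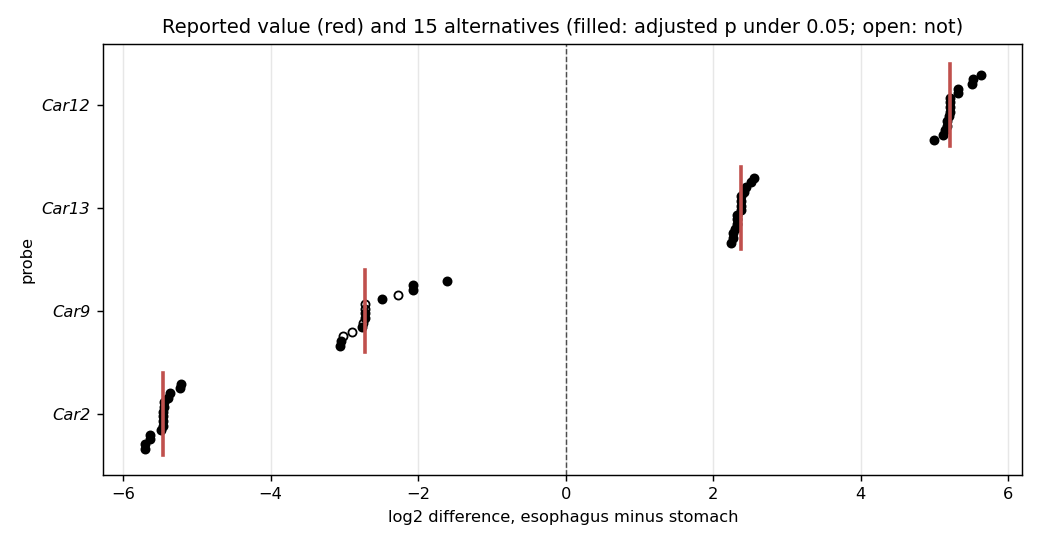
Log2 difference, esophagus minus stomach (horizontal axis), of the 4 called carbonic anhydrases as reported (red line) and under 15 alternatives (points, stacked by value; filled where the adjusted p is under 0.05). Points for Car2, Car12 and Car13 are all filled, and 6 of the 15 for Car9, which range from -3.07 to -1.61, are open.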

How the data were processed

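RNA of 3 esophageal and 3 stomach organoid samples was hybridized to single-color Agilent mouse arrays. The authors scanned them with Feature Extraction (version 11.5.1.1 per the headers of the scanner output). The deposited scanner files give each spot's mean, median and background intensity, not normalized between arrays. The authors deposited a table of log2 values, background corrected and quantile normalized. Its scale was checked: normexp with an offset of 15 on median intensities and quantile normalization differed from it by a median of 0.00433, and its 2029 empty cells were the 2029 spots marked as outliers. Between 45.5% and 51.1% of spots were well above background, which limits dim probes, and the number of arrays limits the precision.

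The log2 values of 59305 non-control spots were averaged per probe. In R (version 4.3.3), lmFit and eBayes of limma (version 3.58.1) were run on the 6 arrays with tissue as the only term, and p-values of the 55681 probes were adjusted by Benjamini-Hochberg. The code was tested on simulated data. An exact permutation test of 3 against 3 cannot go below p = 0.1 and was not used. A probe below background on all arrays of 1 tissue and above it on all arrays of the other is given as a bound, which moves with the normalization. The mouse numbers pair the samples, since the labels name the animal. Across probes, the 2 arrays of a mouse deviated from their tissue means with r = 0.025, 0.0119 and -0.00787 within mice 1, 2 and 4, against -0.0726 to 0.0405 between mice.

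Named genes were the 10 members with every probe, all genes of the list of other family members, and up to 3 called genes per direction of each pathway list, by largest difference. Pathway genes named outside this rule are marked as such in the text. A gene of a list is represented by its brightest probe. The members and lists were chosen with earlier results of these data known. Alternatives were normexp on mean intensities (offset 16 or 50), the 75th percentile, a filter on dim probes, mouse or slide as a block, eBayes with trend and robust variances, averaged probes, other call rules and each array left out. Leaving out mouse 4 in both tissues was chosen after seeing the data. Promoter sequences are from RefSeq (GRCm38.p6), and array coordinates are mm9.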

Additional observations from a re-analysis of the deposited data

How the results depend on the processing

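The number of carbonic anhydrase probes called higher in the stomach, 2, fell to 1 with an offset of 50, with the mouse as a replicate block and with trend and robust variances, where *Car9* was lost (adjusted p = 0.0544, 0.0596 and 0.0621). It rose to 4 with scaling to the 75th percentile, which added *Car14* (adjusted p = 0.0117) and the dimmer *Car8* probe (0.0158). No size is given for these, since both were below background on all esophageal arrays and above it on only 1 stomach array. It ranged from 1 to 2 when each array was left out. The count was 3 under the unadjusted rule and without both arrays of mouse 4. The number called higher in the esophagus was 2 in every alternative except the unadjusted rule, where it was 3 with *Car5b*. Over all probes, 5168 were higher in the esophagus at an unadjusted p under 0.05 and 1.5-fold (3307 in the main result). The same rule gave 4928 higher in the stomach (3463 in the main result). Leaving out 1 array gave 1794 to 3500 higher in the esophagus and 2297 to 3915 higher in the stomach (3463 in the main result). Of the gene lists, the 8 proton and lactate genes called higher in the stomach became 5 with the 75th percentile. The 2 HIF target genes called higher in the esophagus became 1 with the 75th percentile, averaged probes or a 2-fold minimum, 0 without the stomach array of mouse 1, 1 without that of mouse 2, and 4 without that of mouse 4 or without mouse 4 in both tissues. The mouse block changed no other call of a named gene, and moved no count by more than 1.5 times besides.

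None of the differences that changed sign was called. The brighter *Car1* probe gave 0.0774, 0.0448 and 0.00862 with offsets of 16 and 50 and averaged probes, and -0.0906 to 0.0952 with each array left out. Its other probe gave -0.0146 and -0.0088 with the offsets, and -0.0528 to 0.13 with arrays left out. A *Car10* probe gave -0.0347 and -0.0175 with the offsets and -0.0325 with the slide as a block. It gave -0.17 without mouse 4 and -0.13 to 0.13 with arrays left out. Another *Car10* probe, at -0.21 in the main result, gave 0.21 with the 75th percentile. *Car6*, at -0.27 in the main result, gave 0.0015 without mouse 4. The causes were not tested. Under the filter on dim probes, *Car1*, *Car3*, *Car8*, *Car14* and the dimmer *Car4* probe gave no value. Dim probes limit what can be said of these genes, and nothing here separates tissue from medium.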
